A study of Rattus norvegicus with 180 samples.

Results

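The ventral lobe of the rat prostate was compared with the remaining prostate tissue of the same animals, across all 717 miRNAs of an Agilent 1-colour miRNA microarray. The comparison used 6 of the 180 arrays of the atlas: 3 arrays titled prostate_ventral and 3 titled prostate_other, from rats 4, 5 and 6. All 3 animals were male Sprague-Dawley rats, 10 weeks old and perfused with saline before the organs were taken, and both groups shared these features. The labels do not say which lobes prostate_other holds, so it is called "the other lobes" here. The values describe 3 rats of 1 strain, sex and age, and each p-value measures the spread between these 3 rats.

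The rat prostate is a set of paired glandular lobes around the urethra, and the ventral lobe is the one classically used to study androgen dependence. Its ducts are lined by secretory luminal cells over a sparse basal layer and are wrapped in fibromuscular stroma, while striated muscle of the urethral sphincter lies close to the dorsal and lateral tissue. A miRNA is a short RNA that directs the silencing complex to messenger RNAs, mainly through its seed, the bases 2 to 8 from its 5′ end, so miRNAs that share a seed can share targets. In whole tissue, fewer cells of a type and less RNA per cell cannot be told apart.

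The sequences below belong to miRNAs described in the text and are given from RefSeq (assembly GRCr8), 5′ to 3′, with the seed in capitals. Among them miR-743a was not tested, and no sequence was matched for miR-1, the largest decrease. The array names were matched to a RefSeq mature sequence for 51 of the 57 miRNAs that differed. The first 4 come from 1 short stretch of the X chromosome, and miR-743b, miR-883 and miR-742 had the largest fitted differences.
miR-743a: gAAAGACGccaaacuggguaga
miR-743b: gAAAGACAccauacugaauaga
miR-742: gAAAGCCAccauguuggguaaa
miR-883: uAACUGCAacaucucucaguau
The next 4 were higher in the ventral lobe on an autosome: miR-21 (chr10:71902653-71902674, minus strand), miR-10a-5p (chr10:81779730-81779752, plus strand), and a pair that share the seed CAGUGCA, miR-148b-3p (chr7:136299930-136299951, plus strand) and miR-152 (chr10:82329435-82329455, plus strand).
miR-21: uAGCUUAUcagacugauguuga
miR-10a-5p: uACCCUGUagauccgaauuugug
miR-148b-3p: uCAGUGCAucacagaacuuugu
miR-152: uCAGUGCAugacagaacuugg
Lower in the ventral lobe were miR-133b (chr9:30594629-30594650, plus strand), miR-204 (chr1:229743493-229743514, plus strand), miR-205 (chr13:107564588-107564610, minus strand) and miR-375 (chr9:83906591-83906612, minus strand), which are known from different cell types.
miR-133b: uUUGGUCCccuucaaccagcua
miR-204: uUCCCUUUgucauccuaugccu
miR-205: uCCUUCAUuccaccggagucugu
miR-375: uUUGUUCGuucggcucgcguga
The last set shares the seed AGCAGCA, and its members did not move together.
miR-15b: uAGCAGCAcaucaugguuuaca
miR-195: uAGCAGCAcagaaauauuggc
miR-497: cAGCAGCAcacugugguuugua
miR-322: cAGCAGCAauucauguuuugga

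Levels are given as scaled signal: the background-corrected spot signal averaged per miRNA and brought to a common 75th percentile of 2118 over 37 miRNAs detected on all 180 arrays. Detection of a miRNA on an array required that more than 50% of the spots used for it were well above background. For log2 values signals were raised to a floor of 10.8. Of the 717 miRNAs, 536 were detected on none of the 6 arrays and 181 on at least 1, and 91 were detected on all 6. The 135 that were detected in all 3 rats in the ventral lobe, in the other lobes or in both were tested with limma, with Benjamini-Hochberg adjustment over the 135. Of these, 57 differed at an adjusted p under 0.05 (42.2%), of which 14 were higher in the ventral lobe (10.4%) and 43 lower (31.9%). All 57 had groups that did not overlap and the same direction in each of the 3 rats, while 73 of the 135 (54.1%) had groups that did not overlap, 22 with the ventral lobe higher (16.3%) and 51 with it lower (37.8%). The change was at least 2-fold for 11 of the 14 and for 26 of the 43. Among the 57, 7 higher and 24 lower miRNAs were detected on all 6 arrays. The other 26, 7 higher and 19 lower, entered the test only through the group in which they were high, so their p-values are conditioned on it. List counts below that hold any of these miRNAs are conditioned in the same way.

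The median log2 difference over the 135 was -0.24, and over the 91 detected on all 6 arrays it was -0.14, so the profile as a whole leaned slightly towards the other lobes on this scale. The split into higher and lower depended on the scaling. With quantile normalization 23 of 58 calls were higher (39.7%, against 24.6% here), and without scaling 3 of 35 were (8.57%).

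**Figure D1:**
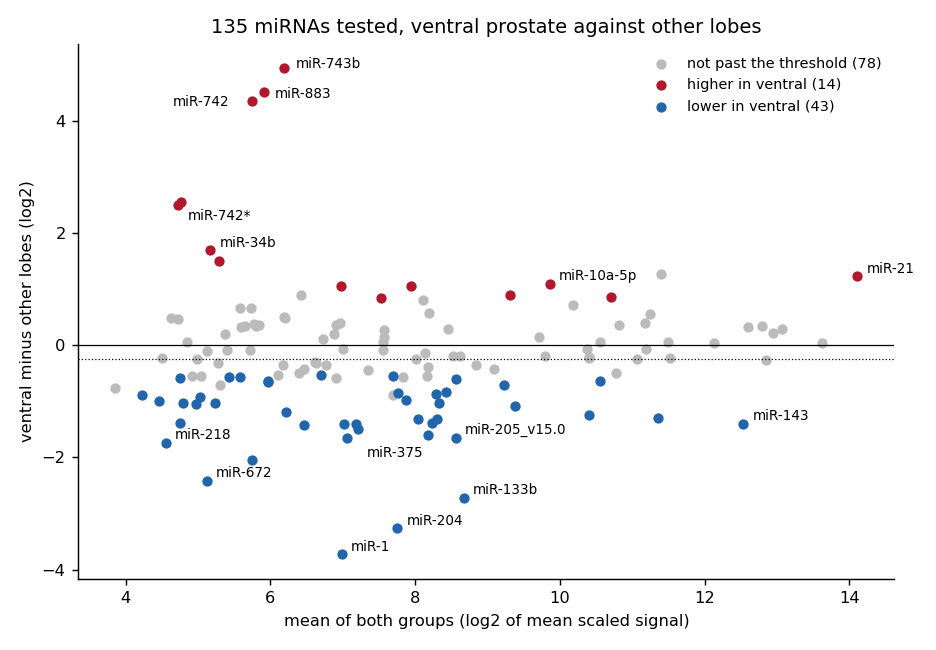
Each point is 1 of the 135 miRNAs tested, with the average of the groups' log2 mean signals on the horizontal axis and the log2 difference, ventral minus other lobes, on the vertical axis. Red points (14) and blue points (43) had an adjusted p under 0.05, grey points did not, the dotted line marks the median difference of -0.24, and the X-linked miR-743b, miR-883 and miR-742 stand above all other points.

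The arrays of the ventral lobe resembled each other closely, with correlations of log2 signal across the tested miRNAs of 0.980 to 0.988. Those of the other lobes correlated at 0.921 to 0.978, and ventral with other-lobe arrays at 0.823 to 0.902. The other-lobe array of rat 4 stood apart within its group: its signal was 124 against 693 and 739.9 for miR-1, and 3208 against 11490.5 and 11386 for miR-200a. Without that array 68 miRNAs differed, 13 higher and 55 lower. Between 102 and 133 miRNAs were detected on the ventral arrays and between 131 and 166 on the other-lobe arrays (exact permutation test, two-sided, p = 0.2, where 0.1 is the smallest p that 3 against 3 arrays allow). The 75th percentile before scaling was also lower on the ventral arrays, at 447 to 1058 against 841 to 2273 (exact p = 0.3), and the part of this lower brightness in the miRNAs missing from the ventral arrays was not tested.

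The brightest miRNA of the ventral lobe was miR-21, a miRNA processed from a transcript that is widely active in epithelium and that has been linked to androgen signalling in prostate cells. Its scaled signal was 19568, 27096 and 35079.5 in the ventral lobes of rats 4, 5 and 6, against 9462, 14166 and 10736 in their other lobes. Every ventral value was above every other-lobe value, and each rat showed the same direction, by 1.05, 0.94 and 1.71 on the log2 scale. The means were 27248 ± 7757 and 11455 ± 2433 (SD, n = 3 each), a log2 difference of 1.23 (SE 0.27, 2.35-fold, adjusted p = 0.00906). The exact permutation test gave p = 0.1, the smallest it can give with 3 against 3 arrays. miR-21 alone made up 15.7, 20.6 and 21.3% of the summed signal of the ventral arrays and 9.05, 9.61 and 6.78% of that of the other-lobe arrays.

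Among the 55 organs of the perfused rats the ventral prostate had the highest mean miR-21 level, ahead of the duodenum at 19399.7, and the other lobes ranked 10. The neighbouring organs were lower, with means of 7937 in the seminal vesicle and 4902 in the bladder. The call for miR-21 depended on the scaling, the rats and how spots were summarised. Without scaling its log2 difference was 0.45 (adjusted p = 0.446), where the median of all tested miRNAs was -0.94. It had an adjusted p of 0.0741 without rat 5 and 0.0804 without rat 6, and a log2 difference of 0.88 (adjusted p = 0.0510) when the median over spots replaced the mean.

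The 10 brightest miRNAs held 61.5, 63.7 and 66.7% of the summed signal on the ventral arrays and 54.1, 58.7 and 60.6% on the other-lobe arrays (64.0 ± 2.61% and 57.8 ± 3.36%, SD, n = 3, exact p = 0.1). Those 10 were largely the same. let-7a, let-7b, let-7c, let-7f, miR-200a, miR-200b, miR-200c_v15.0 and miR-21 were among them on all 6 arrays, where the suffix _v15.0 marks a second version of a miRNA's probe set on the array. Of these 8, miR-21 was the one called.

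The largest fitted differences belonged to miRNAs of a stretch of the X chromosome that is known in rodents for expression in the testis. miR-743b gave 582, 206 and 695 in the ventral lobes of rats 4, 5 and 6, and -1.46, 24.6 and 4.91 in the other lobes, where negative values lie below the local background. It was detected on all 3 ventral arrays and on that of rat 5 among the other lobes. The values of rats 4 and 6 in the other lobes were raised to the floor, so the size of the fitted difference is set partly by the floor and is not a measured ratio. The fitted log2 difference was 4.94 (SE 0.53, adjusted p = 0.00118), and it ranged from 2.29 to 5.99 over the alternatives, with the call kept in all that tested it. miR-883 followed with 423, 199 and 377 against -0.465, 22.7 and 2.95, and it was likewise detected in the other lobes of rat 5 only. Its fitted log2 difference was 4.51 (SE 0.40, adjusted p = 0.000686), with the same limit from the floor and a range of 2.00 to 5.81.

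miR-742 gave 314, 142 and 345 against -0.753, 15.1 and 1.65. It was not detected on any other-lobe array and was at least 20.3-fold higher in the ventral lobe, which sets its mean against the lowest signal of a detected miRNA on each other-lobe array (6.05, 17.6 and 17.1 for rats 4, 5 and 6, adjusted p = 0.000686). The opposite arms of the same hairpins moved with them: miR-742* was 79.0, 37.4 and 87.1 in the ventral lobe, at least 5.20-fold higher, and miR-883* was 76.5, 36.6 and 81.6, at least 5.00-fold higher, with means of 1.97 and 1.54 in the other lobes (both adjusted p = 0.00134). miR-743b, miR-883, miR-742, miR-742* and miR-883* all entered the test through the ventral arrays alone, so their p-values are conditioned on detection there. The calls of miR-742* and miR-883* were lost without scaling, with the normexp background and with a floor 4 times as high. Their fitted log2 differences there went down to 0.62 and 0.58. In all 5, rat 5 had the lowest ventral and the highest other-lobe value of the 3 rats. The arrays of rats 5 and 6 each shared a slide between both tissues, those of rat 4 did not, and the direction was the same in all 3.

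The remaining arms of these hairpins and of miR-743a were seen on some ventral arrays but failed the detection rule and were not tested. miR-743a gave 192, 83.5 and 129 against 0.0235, 10.9 and 1.498 and was called detected on 1 ventral array. miR-743b* gave 68.6, 33.2 and 52.8 and miR-743a* 26.7, 13.7 and 21.4, against means of 0.687 and 0.720 in the other lobes. In each case all 3 ventral values were above all 3 other-lobe values.

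On GRCr8 the 8 mature miRNAs of miR-743a, miR-743b, miR-742 and miR-883 lie at chrX:150444098-150452029 on the minus strand, within 7.93 kb. The set described next was chosen after these values were seen. Beyond a gap, the same chromosome carries miR-471, miR-741, miR-463, miR-880, miR-878, miR-881, miR-871 and miR-465 at chrX:150462909-150488232, for which the array holds 17 miRNAs. All 8 miRNAs of the first stretch were detected on at least 1 ventral array and 5 on all 3, but none of the 17 of the second stretch was detected on any of the 6 prostate arrays. In the testis 7 of the 8 and 8 of the 17 were detected on all 3 arrays.

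The testis had mean signals of 1815 for miR-743b, 512 for miR-742 and 954 for miR-883, and the epididymis 705, 201 and 135. The ventral prostate therefore stood at 17.1 to 52.1% of the testis level for the 7 miRNAs of the first stretch that the testis detected on all arrays (median 27.2%). The 8 of the second stretch that the testis detected were not detected on any ventral array, so no share of the testis level is given for them. The brightest of them in the testis, miR-741-3p, read 10.5, 4.75 and 43.7 on the ventral arrays against a testis mean of 3491. The epididymis had detected members in both stretches and stood at 9.74 to 39.3% of the testis in the first stretch and at 13.6 to 37.3% in the second. Outside the prostate, miR-743b, miR-742, miR-883, miR-742* and miR-883* were detected on 6 arrays, the 3 of the testis and the 3 of the epididymis.

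Some sequences of the X-linked set are close, which matters for a hybridisation assay. Bases were compared position by position from the 5′ end with no shift, so a pair that aligns at an offset is counted too low. miR-743b shares 18 of 22 bases with miR-743a, 16 of 22 with miR-742 and 8 of 22 with miR-883. It also shares 18 of 22 with miR-878 of the second stretch, which was not detected in any prostate array or in the testis. miR-883 shares 15 of 22 with miR-881, also of the second stretch and not detected on any prostate array. The part of cross-hybridisation in these signals was not tested. Of the brightest testis miRNAs of the ciliated epithelium list, miR-449a, at 6487 to 6946 in the testis, read 1.06 to 4.08 on the ventral arrays and was not detected. miR-34b, miR-34b_v15.0 and miR-34c, detected on 3, 3 and 2 ventral arrays, stood at 0.484, 0.333 and 0.280% of the testis level.

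**Figure D2:**
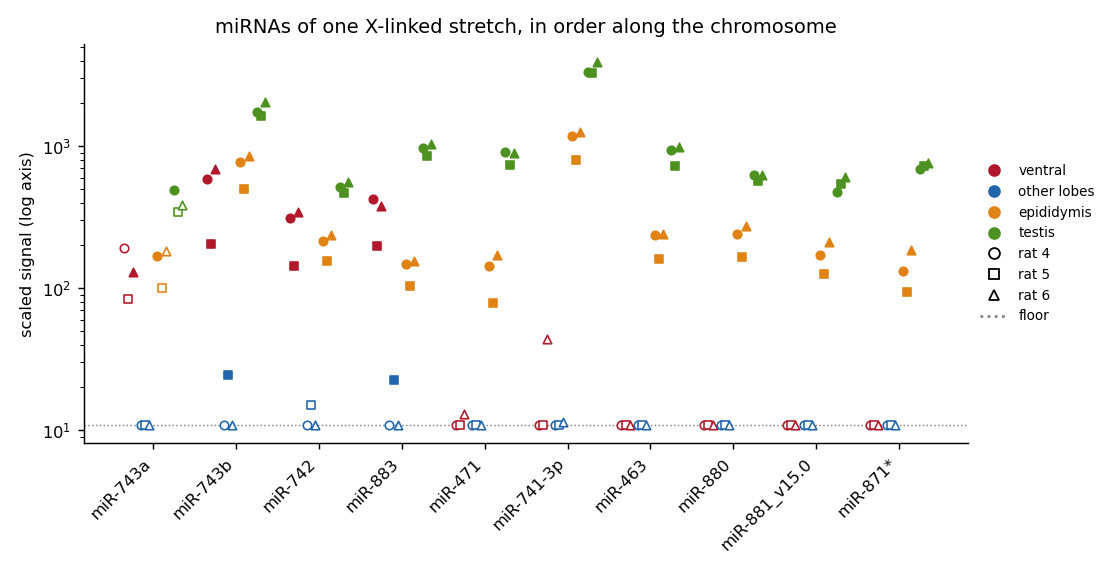
Scaled signal on a log axis for 10 miRNAs of the X-linked stretch in chromosomal order, in ventral prostate, other lobes, epididymis and testis, with 1 symbol per rat (3 per organ). Open symbols were not detected and symbols on the dotted line lie at or under the floor of 10.8. miR-743a to miR-883 are high in the ventral lobe, and miR-471 to miR-871* were not detected in either prostate group, with miR-741-3p of ventral rat 6 at 43.7 the one clearly above the floor, while high in testis and epididymis.

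miR-34b, of the miR-34/449 family known from multiciliated cells and germ cells, was low but higher in the ventral lobe. Its signals were 61.2, 68.2 and 63.7 against 20.2, 23.6 and 16.5 (log2 difference 1.69, SE 0.19, 3.24-fold, adjusted p = 0.00118). The second version on the array, miR-34b_v15.0, gave 60.3, 69.0 and 67.1 against 25.9, 25.0 and 18.9 (1.504, SE 0.19, adjusted p = 0.00134). miR-34c, from the same transcript, was not tested but followed with 36.6, 39.3 and 42.3 against 17.3, 15.7 and 15.5. The 2 entries of the ciliated epithelium list that were tested, miR-34b and miR-34b_v15.0, were both called, beside 10.4% called higher over all 135, but they are 2 probe sets of 1 miRNA. Both entered the test through the ventral arrays alone, so this count and their p-values are conditioned on detection there. Neither was past the threshold without scaling or with the normexp background.

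miR-10a-5p lies within the HOXB gene cluster, whose expression follows position along the body axis. It gave 1385, 1168 and 1523 in the ventral lobe and 667, 625 and 603 in the other lobes (log2 difference 1.10, SE 0.17, 2.14-fold, adjusted p = 0.00234). The call was lost without scaling (0.32, adjusted p = 0.620) and with the median over spots (0.62, adjusted p = 0.0613). The seminal vesicle resembled the ventral lobe in this, with a mean of 2054, and the bladder the other lobes, with 689. Of the 4 tested miRNAs of the HOX clusters, miR-10a-5p was higher, and miR-196a and miR-196b, a pair that share 21 of 22 bases, were lower. Over all 135 tested, 10.4% were higher and 31.9% lower. miR-196a fell from 49.5, 40.5 and 29.8 in the other lobes to 18.8, 23.2 and 16.1 in the ventral lobe (log2 difference -1.03, adjusted p = 0.0140). With normexp it turned to 0.36, not called, and the call was lost without scaling, with the higher floor, in the deposited table and in 4 of the 9 fits that left out a rat or an array. miR-196b changed less, from 249.8, 247 and 254 to 157, 159 and 199.6 (-0.55, adjusted p = 0.0387, 0.0705 with the rat as a block). It passed the threshold in 9 of 17 processing alternatives and in 2 of the 9 fits that left out a rat or an array. miR-10b was not called, with 375, 299 and 401 in the ventral lobe against 241, 499 and 565 (adjusted p = 0.666).

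miR-148b-3p and miR-152, which share the seed and 19 of 21 bases and are known to act on overlapping targets, were both higher. miR-148b-3p gave 170.0, 168 and 202 against 76.3, 112 and 74.2 (log2 difference 1.06, SE 0.22, adjusted p = 0.00703), and miR-152 gave 309, 366 and 371 against 143, 233 and 142 (1.05, SE 0.24, adjusted p = 0.0113). The ventral prostate had the highest mean miR-152 level of the 55 organs and the second-highest level of miR-148b-3p, behind the pituitary gland. Both lost the call without rat 6 (adjusted p = 0.0858 and 0.107) and without scaling (0.28 and 0.27, adjusted p = 0.661 and 0.674). miR-152 also lost it without the ventral array of rat 5 (adjusted p = 0.0515) and with the median over spots (0.0627), where its log2 difference was larger, at 2.31. The remaining called increases were smaller: miR-15b, a cell cycle regulator (log2 difference 0.90, adjusted p = 0.0186), miR-141 of the epithelial miR-200 family (0.86, adjusted p = 0.0490) and miR-221 (0.84, adjusted p = 0.0168). Of the 9 fits that left out a rat or an array, miR-141 passed the threshold in 1, miR-15b in 4 and miR-221 in 5, and all 3 lost the call without scaling and with normexp.

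**Figure D3:**
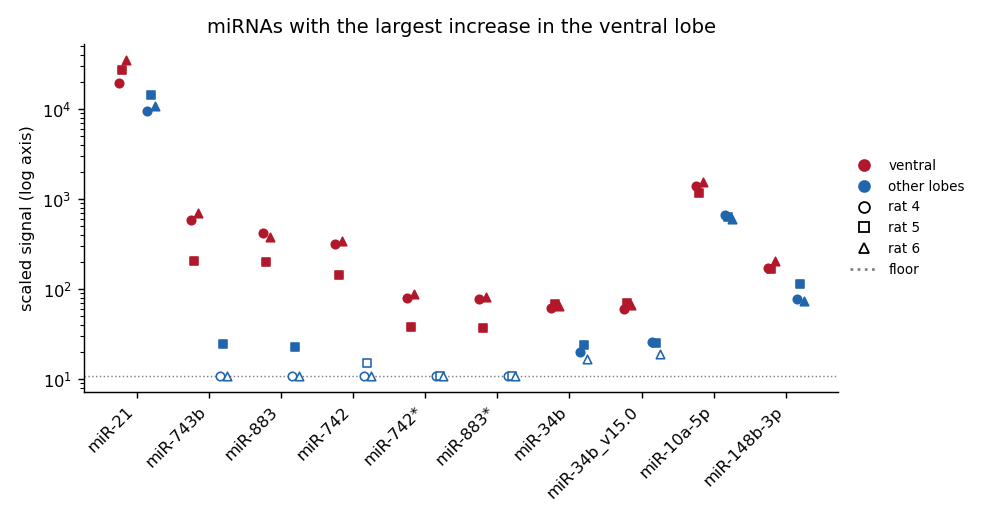
Scaled signal on a log axis for miR-21 and the other 9 miRNAs with the largest called increase, red for the ventral lobe and blue for the other lobes, with 1 symbol per rat (3 per group). Open symbols were not detected and symbols on the dotted line lie at or under the floor of 10.8. For each miRNA all 3 ventral values lie above the 3 other-lobe values.

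Striated muscle miRNAs were among the largest decreases in the ventral lobe, with miR-204 between miR-1 and miR-133b in size. miR-1, which is expressed in skeletal and cardiac muscle, gave 41.1, 30.5 and 21.6 in the ventral lobe against 124, 693 and 739.9 in the other lobes. The groups did not overlap, although the other-lobe value of rat 4 was well under those of rats 5 and 6. The log2 difference was -3.73 (SE 0.69, adjusted p = 0.00465), 13.3-fold lower in the ventral lobe. miR-133b, a partner of the miR-1 family in muscle, gave 191, 133 and 132 against 500.1, 1298 and 1487 (-2.73, SE 0.43, adjusted p = 0.00229). Neither passed the threshold without rat 5 (adjusted p = 0.101 and 0.0741).

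Of the 15 striated muscle miRNAs on the array, miR-1 and miR-133b were the 2 tested, both lower beside 31.9% of all 135, and their median log2 difference was -3.23. Of these, miR-1 entered the test through the other-lobe arrays alone, so its p-value and its place in this count are conditioned on detection there. The summed level of the list was 194 to 265 in the ventral lobe and 691 to 2421 in the other lobes. miR-206, a skeletal muscle miRNA, was not detected in the ventral lobe and read 4.54, 64.2 and 108 in the other lobes of rats 4, 5 and 6, detected on 2 arrays, while miR-499 read 9.34, 9.86 and 13.7 against 18.2, 16.6 and 14.2. The other lobes were far below skeletal muscle itself, where miR-1 averaged 68072. Their miR-1 was close to the means of the bladder (458) and of the seminal vesicle (325).

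Smooth muscle miRNAs were lower too. miR-143 is the brightest of them, and with miR-145 it comes from a transcript that is a classical mark of smooth muscle and fibroblast-like cells. miR-143 gave 4307, 3073 and 3603 in the ventral lobe against 9977, 9658 and 9219 in the other lobes (log2 difference -1.41, SE 0.18, 2.65-fold lower, adjusted p = 0.00134). It was called in every alternative and with any rat or array left out. miR-145 gave 108, 74.5 and 47.2 against 255, 253 and 183 (-1.65, SE 0.32, adjusted p = 0.00588), with an adjusted p of 0.105 without rat 5. Both tested miRNAs of the smooth muscle list were lower, beside 31.9% of all 135, and its summed level was 3151 to 4423 against 9414 to 10262. Of these miRNAs, miR-145 entered the test through the other-lobe arrays alone, so its call is conditioned on detection there. With normexp its log2 difference was -0.48 (adjusted p = 0.386).

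Of the 4 tested miRNAs of the mesenchymal list, 3 were lower and 1, miR-152, was higher, beside 31.9% lower and 10.4% higher over all 135. All 3 of the lower ones lost the call without rat 5 (adjusted p = 0.0597 for miR-199a-5p, 0.0727 for miR-199a-3p and 0.0603 for miR-214), as miR-152 did without rat 6 (0.107). The lower ones were miR-199a-5p, miR-199a-3p and miR-214, which come from a transcript of connective tissue cells and lie at chr13:77116255-77121733. miR-199a-5p gave 111, 83.0 and 70.3 against 220.3, 288 and 229 (-1.49, adjusted p = 0.00228, but -0.27 and 0.620 with the median over spots) and miR-214 gave 90.7, 66.9 and 78.8 against 168, 208 and 258 (-1.41, adjusted p = 0.00234). The summed list level was 924 to 1068 in the ventral lobe and 1489 to 1798 in the other lobes. The part of a difference in muscle and connective tissue content in the other decreases was not tested.

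In the lists for vessels and blood cells no miRNA was called, beside 42.2% called over all 135. Neither endothelial miRNA was called: miR-126 gave 449.6, 378 and 371 against 373, 621 and 572 (adjusted p = 0.274). None of the 3 tested leukocyte miRNAs was called, and the summed level was 436 to 641 against 551 to 689, with miR-142-3p at 148, 150.0 and 248 against 210.4, 243 and 129. The red cell miRNA miR-451, at a mean of 25687 in bone marrow, read 15.8, 13.1 and 5.53 against 8.21, 24.8 and 5.52 in the perfused prostates, and no red cell miRNA reached the test. No pancreatic acinar miRNA and no gut and liver miRNA of the lists was detected on any of the 6 arrays.

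In the neural list miR-338 was the 1 of 3 tested that was called lower, near the 31.9% lower over all 135. It read 34.7, 19.6 and 22.7 against 163, 112 and 59.0 (log2 difference -2.04, SE 0.40, adjusted p = 0.00588). The call was lost without rat 5 (adjusted p = 0.119), with a floor 4 times as high (0.0810) and with normexp, where the difference was -0.20. It is known from myelinating cells, and it was detected on 1 of 3 ventral arrays. miR-9, of neurons and neural progenitors, read 73.9, 61.1 and 50.4 against 40.1, 68.0 and 41.2 and was not called (adjusted p = 0.357). In the Dlk1-Dio3 imprinted cluster 2 of 50 miRNAs were tested and none was called, beside 42.2% called over all 135.

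**Figure D4:**
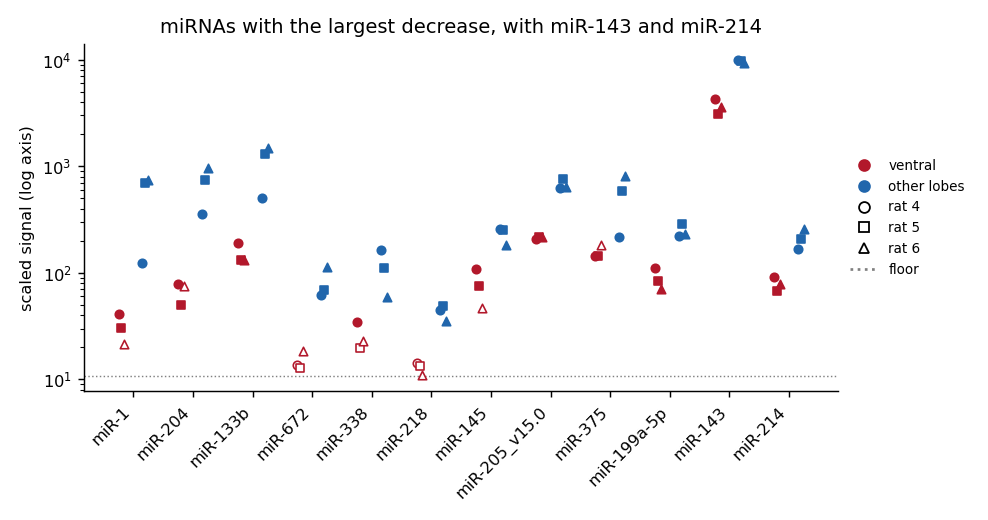
Scaled signal on a log axis for the 10 miRNAs with the largest called decrease in the ventral lobe, with miR-143 and miR-214, drawn with the same colours, symbols and floor as the plot of increases (3 rats per group). For each miRNA all 3 ventral values lie below the 3 other-lobe values, and for miR-1, miR-204, miR-133b and miR-375 the other-lobe circle of rat 4 lies well below the square and the triangle.

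Among epithelial miRNAs, miR-205, which marks the basal layer of prostate ducts and of squamous epithelium, was lower in the ventral lobe on both of its probe sets. miR-205_v15.0 gave 208, 216 and 216 against 624, 753 and 636 (log2 difference -1.65, SE 0.16, 3.14-fold lower, adjusted p = 0.000929), and miR-205 gave 192, 172 and 189 against 538, 512 and 405 (-1.39, SE 0.18, adjusted p = 0.00134). The replicates were tight in both groups and the gap between them was wide. These were the 2 entries of the basal and squamous list that were tested, beside 31.9% lower over all 135. Its summed level was 417 to 419 in the ventral lobe and 1052 to 1286 in the other lobes. miR-205_v15.0 averaged 277 in the seminal vesicle and 529.7 in the bladder, and was highest in the esophagus at 2076.

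The miR-200 family, which maintains the epithelial state, was abundant in both groups. miR-200b read 10357, 10212 and 15427 in the ventral lobe and 5142, 14513 and 19907 in the other lobes, with a log2 difference of 0.05 (SE 0.49, adjusted p = 0.930) and widely overlapping groups. The other lobes and the ventral lobe had the highest and second-highest mean miR-200b of the 55 organs. miR-200a was also not called, at 5746, 6195 and 6779 against 3208, 11490.5 and 11386 (-0.27, adjusted p = 0.679). Without the other-lobe array of rat 4, which stood apart, miR-200a was called lower in the ventral lobe (-0.88, adjusted p = 0.00600), as it was without rat 4 (-0.82, adjusted p = 0.0259). Of 7 tested members, miR-141 was the one called, and the list's median log2 difference was -0.07. Over all 135 tested, 42.2% were called and 10.4% were higher. The sensory epithelial cluster of miR-183, miR-96 and miR-182 had 2 members tested and none called, with miR-96 at 752, 798 and 1085 against 587, 955 and 854.

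miR-375, a miRNA of endocrine and secretory epithelium, was lower in the ventral lobe at 143, 142 and 183 against 217, 588 and 808 (log2 difference -1.60, SE 0.47, adjusted p = 0.0311). The other-lobe value of rat 4 was near the ventral values, and the call was lost in 7 of the 9 fits that left out a rat or an array. The seminal vesicle averaged 851 and the bladder was at background. miR-7a, the other tested member of that list, went the opposite way at 56.5, 76.3 and 65.7 against 34.9, 54.9 and 37.8, with an adjusted p of 0.0583 that became 0.0408 with the rat as a block.

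miR-204, a miRNA known from eye and other epithelia and in no list here, was among the largest decreases. It gave 78.1, 49.5 and 75.1 in the ventral lobe against 358, 750.0 and 957 in the other lobes (log2 difference -3.26, SE 0.39, 9.60-fold lower, adjusted p = 0.00118). It was called in the 16 processing alternatives that tested it and with any rat or array left out. The requirement of detection on all 6 arrays left it untested, since it was detected on 2 of 3 ventral arrays. In this the other lobes (mean 688) resembled the epididymis (958), not the seminal vesicle (115) or the bladder (64.4).

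Detection in 1 group only was more common in the other lobes. On all 3 other-lobe arrays and no ventral array, 10 miRNAs were detected, against 3 the other way (miR-742, miR-742* and miR-883*). The lowest signal of a detected miRNA was 15.6, 21.5 and 43.7 on the ventral arrays of rats 4, 5 and 6. On their other-lobe arrays it was 6.05, 17.6 and 17.1, and the part of this in the counts was not tested. The brightest of the 10 were miR-352, miR-672, miR-361, miR-218 and miR-99b. miR-672 read 62.4, 68.5 and 113 in the other lobes and 13.5, 12.8 and 18.4 in the ventral lobe, at least 3.21-fold higher in the other lobes (adjusted p = 0.00118), and it was highest in the epididymis, at 709. Its call was lost with normexp, where the log2 difference was -0.0052, and with a floor 4 times as high. The bound was lower for miR-218 (at least 1.74-fold, adjusted p = 0.00118), miR-361 (at least 1.66-fold, adjusted p = 0.00243) and miR-99b (at least 1.52-fold, adjusted p = 0.00728). With normexp the direction of these 3 turned to higher in the ventral lobe (0.26, 0.30 and 0.34), none called, and miR-218 and miR-99b also lost the call without scaling and with the higher floor. miR-352 was not called (86.9, 91.2 and 68.9 against 65.2, 63.9 and 43.2, adjusted p = 0.100), but it was with the slide as a random block (-0.55, adjusted p = 0.0434).

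**Figure D5:**
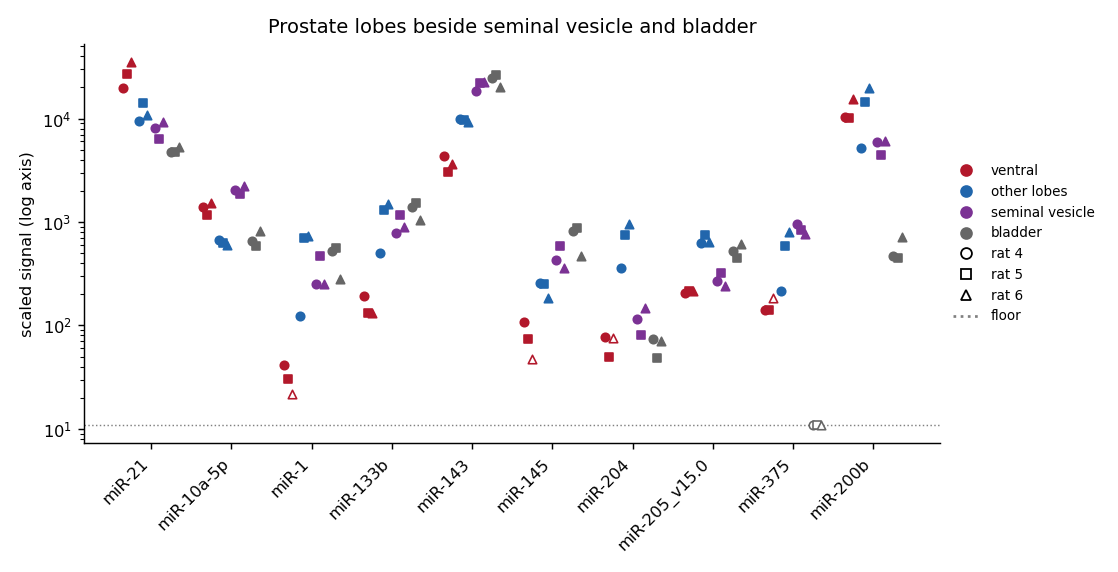
Scaled signal on a log axis for 10 miRNAs in ventral prostate, other lobes, seminal vesicle and bladder, 1 symbol per rat (3 per organ), open where not detected and on the dotted line at or under the floor of 10.8. For miR-143, miR-145, miR-1 and miR-133b the other lobes, seminal vesicle and bladder lie above the ventral lobe, and for miR-21 the ventral lobe lies above all 3.

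The following lists are of miRNA families and genomic clusters, described by their counts with no test of the list. The clusters of miR-99, miR-125 and let-7 have roles in cell differentiation and are found at 3 places in mammalian genomes. Of 7 tested members 6 were lower in the ventral lobe and none was higher, beside 31.9% lower over all 135, and their median log2 difference was -1.24 beside -0.24. Of the 6, miR-100, miR-99b and miR-125a-5p entered the test through the other-lobe arrays alone, so this count is partly conditioned on detection there. miR-99a read 981, 742.2 and 919 against 1909, 2075 and 2213 (-1.24, SE 0.18, adjusted p = 0.00228) and kept its call in every alternative. miR-125b-5p read 1934, 1371 and 1746 against 3802, 4049 and 4396 (-1.29, adjusted p = 0.00228), but -0.47 with the median over spots (adjusted p = 0.643). miR-100 read 116, 86.1 and 68.9 against 241, 253 and 206 (-1.40, adjusted p = 0.00283, 0.0741 without rat 5 and 0.2499 with the median over spots). The neighbours miR-99b, let-7e and miR-125a-5p at chr1:67350070-67350712 were all lower. With normexp miR-99b and miR-125a-5p turned to 0.34 and 0.010, neither called.

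let-7c, the member of those clusters that was not called, read 8439, 8369 and 11569 in the ventral lobe against 6106, 7851 and 9309 (0.29, adjusted p = 0.359). In the let-7 family as a whole let-7e was the 1 of 8 called, beside 42.2% called over all 135, and the median was 0.13. let-7e read 262, 175 and 242 against 457, 416 and 498 (-1.03, adjusted p = 0.00655, 0.0555 without rat 6 and 0.152 with quantile normalization).

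The family of miR-15b, miR-16, miR-195 and miR-497, which shares the seed AGCAGCA printed above and restrains the cell cycle, was split. miR-15b was higher in the ventral lobe, at 712, 846 and 1039 against 374, 570.4 and 450.3, while miR-195 was lower at 223, 157 and 227 against 490.0, 508 and 487 (-1.31, adjusted p = 0.00228). miR-497, which neighbours miR-195 at chr10:55450172-55450529, was lower as well at 186, 129.7 and 184 against 396, 438 and 400.4 (-1.32, adjusted p = 0.00228). miR-322 was slightly lower (-0.54, adjusted p = 0.0387, 0.0718 with the rat as a block) and miR-16 was not called (0.36, adjusted p = 0.157). The call for miR-322 passed in 9 of 17 processing alternatives and in 1 of the 9 fits that left out a rat or an array. With normexp miR-322 turned to 0.14, not called. Of the 5 tested members, 1 was thus higher and 3 lower, beside 10.4% and 31.9% over all 135. miR-15b lost its call without rat 5 (adjusted p = 0.0741) or rat 6 (0.134).

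In the miR-30 family 4 of 7 tested members were lower and none higher, beside 31.9% lower over all 135, with a median of -0.56. miR-30a read 266, 243 and 264 against 410.1, 482 and 493 (-0.84, adjusted p = 0.00588, 0.0727 without rat 5, 0.0737 without rat 6, and -0.22 and 0.413 with quantile normalization). The other 3, miR-30c, miR-30a* and miR-30e*, passed without a rat block but not with one (adjusted p = 0.0574, 0.0691 and 0.0705). Of the 9 fits that left out a rat or an array, they passed in 2, 1 and 1. They passed in 10 of 17, 9 of 16 and 10 of 16 processing alternatives, and miR-30c was at -0.0012 with quantile normalization (adjusted p = 0.996). Both miR-30a* and miR-30e* entered the test through the other-lobe arrays alone. In the miR-23/24/27 clusters miR-23a (-0.65, adjusted p = 0.0345) and miR-27a (-0.71, adjusted p = 0.0168), neighbours at chr19:40859614-40859798, were the 2 of 5 tested that were lower. This is near the 31.9% lower over all 135, and miR-24, miR-23b and miR-27b were not called. miR-23a passed the threshold in 2 and miR-27a in 6 of the 9 fits that left out a rat or an array, and each in 12 of 17 processing alternatives. miR-181a, the 1 tested member of its family, read 58.8, 43.2 and 60.3 against 147, 143 and 139 (-1.42, SE 0.19, adjusted p = 0.00143), and the ventral prostate had the lowest mean of the 55 organs.

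miR-103 and miR-107, which share 22 of 23 bases and may share signal on the array, were both lower, miR-107 at 169, 164 and 166 against 318, 342 and 324 (-0.98, SE 0.15, adjusted p = 0.00228, 0.118 with the median over spots). miR-103 lost its call without rat 5 (adjusted p = 0.0727) or rat 6 (0.0588). No member was called among 4 tested of the miR-29 family or among 5 tested of the miR-17-92 cluster and its paralogues, beside 42.2% called over all 135. miR-29a, for instance, read 2671, 2969 and 3223 against 2913, 2799.8 and 2789 (adjusted p = 0.797).

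In a list of miRNAs linked to androgen action in prostate tissue or cells, 9 of 11 tested members differed, in both directions, beside 42.2% of all 135 tested. The 4 that were higher in the ventral lobe were miR-21, miR-148b-3p, miR-141 and miR-221, and the 5 that were lower were miR-27a, miR-99a, miR-125b-5p, miR-205 and miR-100. The list's median log2 difference was 0.29. let-7c and miR-101a were the others, the latter with 318, 390.3 and 348 against 215, 324 and 189.5 (adjusted p = 0.0967).

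Set beside the rest of the atlas over 425 miRNAs detected on at least 1 array, the mean log2 profile of the ventral lobe was closest to that of the other lobes (Pearson's r = 0.951 across miRNAs), then to the seminal vesicle (0.931) and the epididymis (0.903). The other lobes were closer to the seminal vesicle (0.977) than to the ventral lobe (0.951). These are descriptions over miRNAs of the same animals, and miRNAs are not independent replicates. For 46 of the 57 called miRNAs the seminal vesicle level was nearer that of the other lobes than that of the ventral lobe, 12 of the 14 higher and 34 of the 43 lower ones. The bladder gave 49 of 57. The epididymis gave 40 of 57, 3 of the 14 higher and 37 of the 43 lower ones, and the testis 32 of 57, 5 of the 14 and 27 of the 43. These counts were not made over the miRNAs that were not called.

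With the rat as a block 54 miRNAs were called, 51 of them in common with the 57. Beyond miR-7a, the block added miR-1224, a miRNA produced from a short intron, which was higher in the ventral lobe at 329, 361 and 371 against 111, 267 and 273 (adjusted p = 0.108, 0.0488 with the block), and miR-652, lower at 131, 121 and 204 against 189, 297 and 365 (adjusted p = 0.0583, 0.0161 with the block). It also lost miR-128 (adjusted p = 0.0705 with the block). The number called fell to 27 without rat 5 and to 36 without rat 6. It fell to 11 with normexp, which changed the background model, took raw spot medians and had an offset of 50, all at once. The 11 were miR-743b, miR-883, miR-742, miR-21, miR-10a-5p, miR-204, miR-133b, miR-143, miR-125b-5p, miR-99a and miR-205_v15.0, and all but miR-21 and miR-133b kept their calls without rat 5 and without rat 6 too.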

How the data were processed

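Total RNA of each tissue (miRNeasy, 0.1 µg) was labelled with Cy3 and hybridised to a customized Agilent rat miRNA array with probes from successive miRBase releases, which the authors scanned and read with Agilent Feature Extraction 10.7.3 per the labels. The deposited scanner files give spot intensities, background-subtracted by the software, for 14340 spots (20 per miRNA) on each array. The deposited series table gives normalized signals, which equalled the software's total gene signal times 1 factor per array (1.65 to 8.23 for these 6).

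From the intensities, outlier spots were dropped (2.35 to 2.55% per array, with no saturated spot) and spots were averaged per probe sequence and then per miRNA. Arrays were scaled, floored at 10.8 and log2 transformed. limma 3.58.1 (R 4.3.3) fitted the 6 arrays without a block, and was tested on simulated data. The number of arrays limits the precision, and intensities give no read depth.

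Rat numbers mark the same animal. Deviations from the group means correlated at 0.34, -0.03 and 0.22 between the tissues of rats 4, 5 and 6. Slides held both tissues of rat 5 and of rat 6, scans followed the rat, and within those slides all 57 calls kept their direction.

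The members, the 25 miRNA lists and the tests were chosen with earlier results of these data known. Named miRNAs were miR-21, the 10 largest increases and decreases, up to 5 detected in 1 group only, the 5 brightest of each group, and list members. A few others are named after their values were seen: the X-linked set, miR-204's comparison organs, the families sharing a seed, miR-1224, miR-652, miR-128, miR-103 and miR-107. Alternatives covered the block, slide, scaling, background, floor, spot summary, filter, moderation, the deposited table, and leaving out each rat or array. The normexp fit had an offset of 50 and used the median spot signal, in place of the planned mean, which was not analysed here. miRNA sequences and positions came from RefSeq (GRCr8), and the array's own names were kept.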

Additional observations from a re-analysis of the deposited data

How the results depend on the processing

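Of the results recomputed under 17 processing alternatives and 9 fits without a rat or an array, the number called ranged from 27 to 68 with a rat or array left out, the number higher from 9 to 16 and the number lower from 17 to 55. miR-21 was higher in the ventral lobe throughout, at 0.99 to 1.45 without a rat or array, and it lost the call without rat 5, without rat 6, without scaling (0.45) and with the median over spots (0.88). Without scaling, where the median of all tested miRNAs moved by -0.70, 35 were called and 3 were higher. Quantile normalization gave 23 higher, the median over spots gave 9 higher, and requiring detection on all 6 arrays left 29 called, 6 higher and 23 lower, of 91 tested. With the rat as a block 54 were called, 16 higher and 38 lower, and the calls it changed are given with the values above. The rat block changed no other call. With the slide as a random block 69 were called, 16 higher and 53 lower.

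The normexp alternative moved the median by 0.51 and left 11 calls, 5 higher and 6 lower. It changed the background model, used the median spot signal and had an offset of 50, and these choices were not varied singly. Under it 16 dim miRNAs turned to a higher signal in the ventral lobe: miR-218 (0.26), miR-352 (0.27), miR-361 (0.30), miR-99b (0.34), miR-125a-5p (0.010), miR-128 (0.50), miR-185 (0.36), miR-186 (0.26), miR-196a (0.36), miR-28 (0.26), miR-30a* (0.38), miR-30e* (0.36), miR-322 (0.14), miR-328a (0.45), miR-342-3p (0.36) and miR-3559-5p (0.48). None of these was called there, and the cause was not tested. miR-200a, not called otherwise, was called lower without rat 4 or its other-lobe array. Some miRNAs not called here changed sign: miR-200b with the slide as a random block (-0.084), quantile normalization (-0.34), no scaling (-0.73), the median over spots (-0.023) and rats or arrays left out (-0.53 to 0.45), let-7c (-0.49), let-7a (-0.55) and miR-200c_v15.0 (-0.43) without scaling, and miR-200a with rats or arrays left out (-0.88 to 0.046).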
